A study of Homo sapiens with 24 samples.

Results

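The small heat shock proteins and crystallin B were followed here as 6 genes, HSPB1, HSPB2, HSPB8, HSPB9, HSPB11 and CRYAB, of the 57500 genes counted by RNA-Seq in FaDu and SAS spheroids. The genes were chosen by name, and the GENCODE v29 symbols of all 6 matched an Ensembl identifier in the count tables. FaDu and SAS are established human head and neck squamous cell carcinoma (HNSCC) lines, and spheroids are round multicellular aggregates grown from them, here for 4 days to a mean diameter of about 400 µm. Each line contributed 4 groups with 3 replicates, which gave 24 libraries. Control spheroids received neither treatment. RT groups received a single dose of 7 Gy (FaDu) or 10 Gy (SAS). HT groups were heated at 42.5 °C for 60 min, and HT + RT groups received the same heat and then the dose of their line. RNA was collected 0.5 h after treatment. The comparisons ask what heat, radiation and their combination did to the transcripts of each line, and how the untreated lines differed. Libraries held between 15203484 and 29452514 counts.

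Small heat shock proteins share an alpha-crystallin domain, form large oligomers and bind unfolding proteins without using ATP. Clients held in this way can later be refolded by HSP70 with its DNAJ partners and nucleotide exchange factors, or be handed to degradation and selective autophagy. Transcription of several family members is driven by heat shock factor HSF1, which binds repeats of the short unit nGAAn in alternating orientation. HSPB1 (HSP27) is the widely expressed member in epithelial cells and a substrate of the p38 kinase branch. CRYAB (alpha-B-crystallin) is best known from lens and muscle, HSPB2 from muscle, and HSPB9 from testis. HSPB8 works with the co-chaperone BAG3 in selective autophagy. HSPB11, grouped with these genes by its symbol, is also known as IFT25, a subunit of intraflagellar transport complex B in cilia. The description of small heat shock proteins above is not applied to HSPB11.

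On GRCh38, GENCODE v29 places HSPB1 (ENSG00000106211) at chr7:76302544-76304295, HSPB8 (ENSG00000152137) at chr12:119178642-119221131 and HSPB9 (ENSG00000260325) at chr17:42121431-42123352, all on the plus strand. HSPB11 (ENSG00000081870) lies on the minus strand at chr1:53916574-53945929. CRYAB (ENSG00000109846, chr11:111908565-111923722, minus strand) and HSPB2 (ENSG00000170276, chr11:111912242-111914093, plus strand) overlap each other. All 6 are annotated as protein-coding. The positions come from the annotation, since the count tables hold identifiers without coordinates.

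Because several of these genes are known targets of HSF1, the 250 bases before each RefSeq start site (GRCh38.p14) were searched for its inverted repeat, written as GAANNTTC or TTCNNGAA. Each form reads the same on both strands. The promoter set used here held RefSeq sequences for 4 of the 6 genes (HSPB1, HSPB8, HSPB9 and HSPB11, the last under the symbol IFT25). It held none for HSPB2 and CRYAB. HSPB1 held 1 match, 182 to 175 bases before its start, and HSPB8 held 1 match, 88 to 81 bases before its start. HSPB9 and the 2 start sites of HSPB11 held none. At least 1 match in either form occurred in 11.6% of the 35116 promoters of this length, with GAANNTTC in 5.78% and TTCNNGAA in 6.62%. The longer forms GAANNTTCNNGAA and TTCNNGAANNTTC, which hold 3 units, occurred in 0.441% of promoters when counted as 1 class, and in none of the 4 genes. The stretches around the matches in HSPB1 (chr7:76302423-76302543, plus strand) and HSPB8 (chr12:119178832-119178861, plus strand) are shown because these genes rose with heat in both lines. That of HSPB6 (chr19:35757214-35757243, minus strand), a relative outside the 6 genes, is shown beside them because it held 2 matches, the most among the relatives searched. HSPB3 held 1 match, and HSPB7 and CRYAA held none. Capitals mark the matches, which describe letters in a window and not measured binding.
HSPB1: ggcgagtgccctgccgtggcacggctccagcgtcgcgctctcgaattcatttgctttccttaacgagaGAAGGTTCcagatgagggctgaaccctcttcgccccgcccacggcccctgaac
HSPB8: tcatcacctccGAATATTCctgtgacagga
HSPB6: cctcTTCTGGAAattgggGAATCTTCatgt

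The labelled origin of the spheroids was checked with marker genes. All 8 squamous markers (KRT5, KRT6A, KRT14, KRT17, TP63, EPCAM, CDH1 and SFN) exceeded 1 CPM in each of the 24 libraries, where CPM is the count scaled by library size with TMM factors over all libraries. FaDu libraries had a summed level of 9726 to 11645 CPM of these genes, and SAS libraries of 3747 to 4567 CPM. KRT17 was the most abundant of them except in FaDu Control replicate 1, where it was KRT5. The lens and muscle markers, which mark the tissues where CRYAB and HSPB2 are most abundant, stayed low. CRYAA had no count in any library, the 3 lens genes together reached at most 1.36 CPM, and the 4 muscle genes (DES, MYH7, ACTA1 and CKM) together at most 1.11 CPM. The leukocyte markers PTPRC and CD3E reached at most 0.252 and 0.0544 CPM, while CD68, the other leukocyte gene listed, had 1.13 to 2.81 CPM in every library. The endothelial markers had counts in both lines, with Control means in FaDu and SAS of 4.19 and 14.5 CPM for CDH5, 2.62 and 1.71 CPM for VWF, and 1.24 and 0.243 CPM for PECAM1.

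The FaDu libraries with replicate number 1 stood apart from the other FaDu libraries. Within each FaDu group, the chi-square per gene between replicate 1 and either other replicate was 15.1 to 22.0, against 3.51 to 5.09 between replicates 2 and 3. In SAS spheroids the replicate pairs spanned 4.61 to 11.8. In replicate 1, HSPB8 had its lowest level in 4 of the 4 FaDu groups, and HSPB1 and CRYAB had theirs in 3 of 4. Results are therefore also given without these libraries where they changed.

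Genes count as altered when edgeR's quasi-likelihood test gave them an adjusted p below 0.05 together with a log2 fold change beyond 1 in either direction, with Benjamini-Hochberg adjustment over all genes tested in the comparison. In FaDu spheroids, HT altered 3 of the 6 genes upward relative to Control, namely HSPB1, HSPB8 and CRYAB, where 4.29% of the 15879 genes tested were altered upward. HT + RT altered the same 3 of 6 upward relative to Control, where the share over 15896 genes was 5.08%. Relative to RT, HT + RT altered 4 of 6 upward, with HSPB9 in addition, and 4.76% of 15905 genes. In SAS spheroids, 4 of the 6 genes (HSPB1, HSPB8, HSPB9 and CRYAB) were altered upward by HT relative to Control, where the share over 15000 genes was 5.31%. The same 4 of 6 were altered upward by HT + RT relative to Control (5.76% of 14938 genes) and relative to RT (5.71% of 15125 genes). HSPB11 was altered in none of these comparisons, and HSPB2 had too few counts to be tested in any. In SAS spheroids HSPB8, HSPB9 and CRYAB entered the test through the heated libraries alone, as did HSPB9 in the FaDu comparison of HT + RT with RT, so these genes had to differ to be tested at all. HT against Control and HT + RT against RT share no library within a line, whereas both comparisons with Control share the Control libraries.

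**Figure D1:**
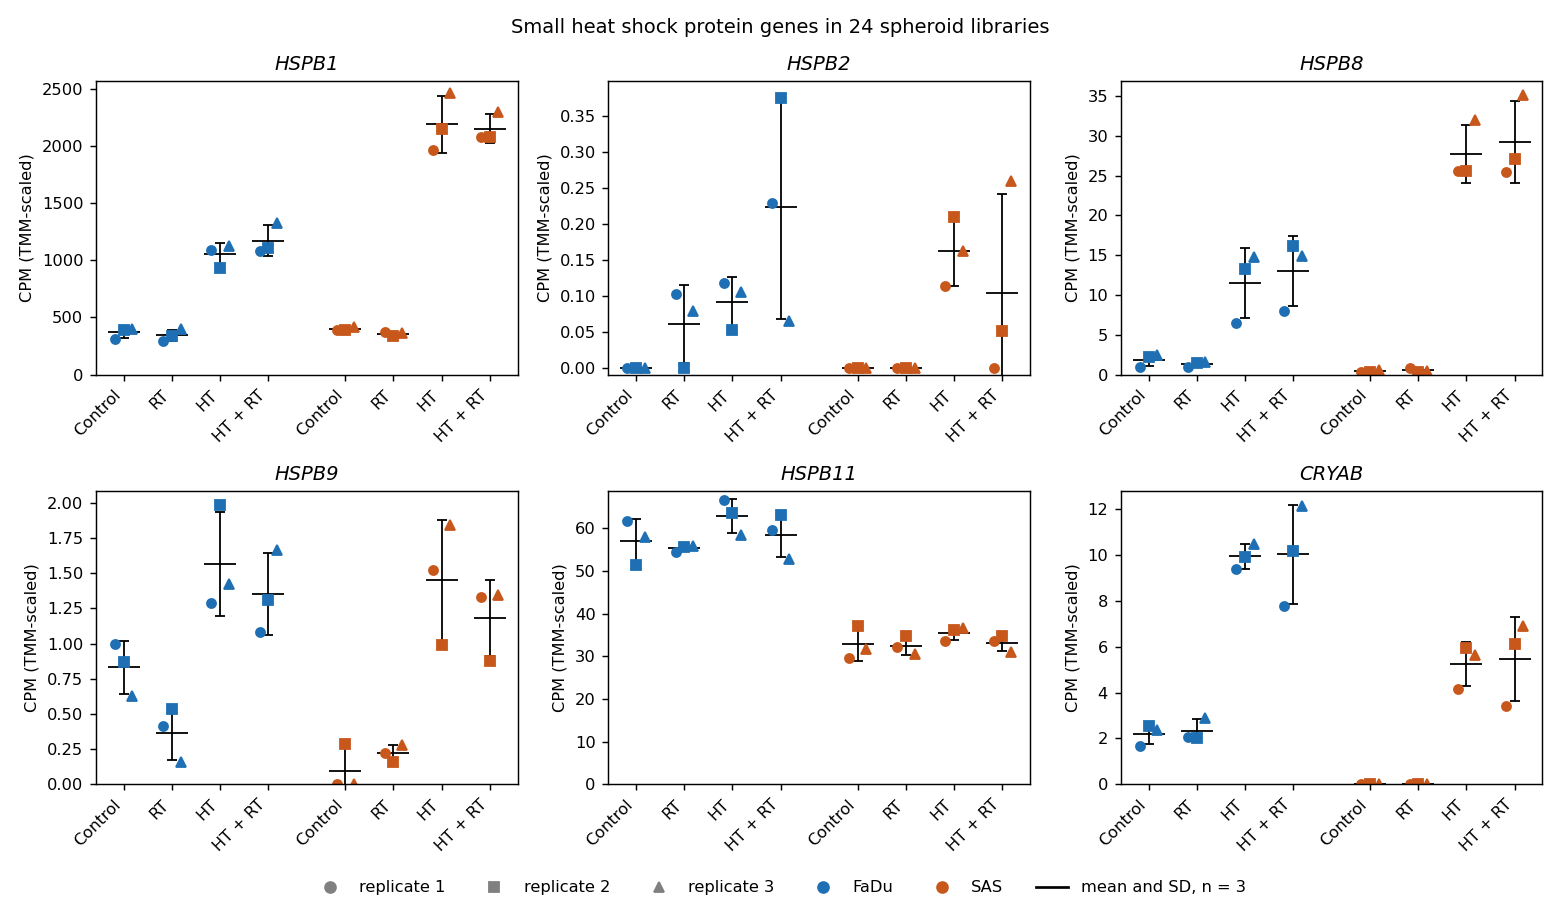
Level of each of the 6 genes in CPM (vertical axis, starting at or near 0) in the 24 libraries, with FaDu in blue and SAS in orange, a symbol per replicate, and bars for the mean and SD of 3 replicates. The heated groups lie above the unheated groups of the same line for HSPB1, HSPB8, HSPB9 and CRYAB, and overlap them for HSPB11.

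HSPB1, the most abundant of the 6 genes, measured 314.5, 393 and 399.9 CPM in FaDu Control, 294.5, 339 and 397 CPM after RT, 1093, 935 and 1128 CPM after HT, and 1078, 1109 and 1329.7 CPM after HT + RT. All 6 heated FaDu libraries were above all 6 unheated ones, while RT overlapped Control and HT overlapped HT + RT. In SAS spheroids HSPB1 measured 394, 391 and 417 CPM in Control, 374, 339 and 363 CPM after RT, 1963, 2147 and 2457 CPM after HT, and 2073, 2080.4 and 2296 CPM after HT + RT. The heated SAS libraries were again all above the unheated ones, and they also exceeded every heated FaDu library. The log2 fold change of HSPB1 with HT was 1.535 ± 0.11 (SE, edgeR adjusted p = 6.68e-05) in FaDu and 2.48 ± 0.08 (SE, edgeR adjusted p = 4.87e-10) in SAS spheroids. Between HT + RT and RT, in the other libraries, it was 1.79 ± 0.12 in FaDu and 2.62 ± 0.06 in SAS. Relative to Control, HT + RT gave 1.69 and 2.47. In bulk RNA, a change in the share of cells that express a gene and a change in its RNA per cell cannot be told apart. In the order of group means, SAS HT and SAS HT + RT overlapped at the top, both FaDu heated groups followed without reaching them, and the 4 unheated groups overlapped their neighbours from 401 down to 343 CPM.

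HSPB8, the partner of BAG3, was low before heat. In FaDu Control it had 18, 43 and 59 counts, or 0.9445 to 2.475 CPM. It measured 0.924, 1.49 and 1.65 CPM after RT, 6.55, 13.3 and 14.8 CPM after HT, and 7.94, 16.1 and 14.9 CPM after HT + RT. The 6 heated libraries were above the 6 unheated ones, with replicate 1 lowest in every group. In SAS spheroids HSPB8 measured 0.326, 0.342 and 0.589 CPM in Control, 0.902, 0.3145 and 0.444 CPM after RT, 25.6, 25.6 and 31.9 CPM after HT, and 25.4, 27.0 and 35.1 CPM after HT + RT. The SAS Control libraries rested on 6, 6 and 10 counts, against 455, 491 and 589 counts after HT. SAS thus held the lowest HSPB8 levels of the series without heat and the highest with it. Heated and unheated libraries were apart in SAS as well, and SAS RT replicate 1 (0.902 CPM) lay just below the lowest FaDu RT library (0.924 CPM). The log2 fold change with HT was 2.64 ± 0.39 (SE, edgeR adjusted p = 0.00233) in FaDu and 6.07 ± 0.21 (SE, edgeR adjusted p = 1.39e-09) in SAS spheroids. Between HT + RT and RT it was 3.26 ± 0.32 in FaDu and 5.76 ± 0.25 in SAS.

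CRYAB had no count in any of the 6 unheated SAS libraries. After HT it had 74, 114 and 104 counts (4.17, 5.95 and 5.64 CPM) in SAS spheroids, and after HT + RT 51, 119 and 133 counts (3.40, 6.115 and 6.89 CPM). Every heated SAS library thus held CRYAB counts and no unheated one did. Taking 3 counts over the group as the floor, HT was at least 93.0-fold higher than Control, HT + RT at least 99.3-fold higher than Control and HT + RT at least 103-fold higher than RT (edgeR adjusted p = 2.42e-06, 1.27e-05 and 1.32e-05). These bounds cover counting error only. In FaDu spheroids CRYAB was present throughout, with 1.68, 2.55 and 2.35 CPM in Control, 2.05, 2.02 and 2.90 CPM after RT, 9.41, 9.93 and 10.5 CPM after HT, and 7.77, 10.2 and 12.1 CPM after HT + RT. Heated and unheated FaDu libraries did not overlap, and the heated FaDu libraries were above the heated SAS libraries. The FaDu log2 fold change was 2.20 ± 0.18 (SE, edgeR adjusted p = 0.000126) with HT and 2.11 ± 0.22 (SE, edgeR adjusted p = 0.000461) between HT + RT and RT. For CRYAB the order of the groups was therefore FaDu heated, SAS heated, FaDu unheated and SAS unheated, with overlap only inside each of these pairs.

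HSPB9, known for its expression in testis, had few counts in every group. In FaDu it had 19, 17 and 15 counts in Control, 8, 10 and 4 counts after RT, 22, 38 and 27 counts after HT, and 19, 21 and 51 counts after HT + RT. In CPM the unheated FaDu libraries ran from 0.157 to 0.997 and the heated ones from 1.09 to 1.99, so they did not overlap, although the gap was narrow. In SAS it had 0, 5 and 0 counts in Control, 4, 3 and 5 counts after RT, 27, 19 and 34 counts after HT, and 20, 17 and 26 counts after HT + RT. The SAS ranges were 0 to 0.285 CPM without heat and 0.874 to 1.84 CPM with heat, again without overlap. In FaDu, the log2 fold change of HSPB9 was 0.95 ± 0.31 with HT (SE, edgeR adjusted p = 0.0688) and 0.76 ± 0.30 for HT + RT against Control (SE, edgeR adjusted p = 0.118), neither past the thresholds. Between HT + RT and RT it was 1.97 ± 0.42 (SE, edgeR adjusted p = 0.0131), but 1.76 and no longer past the threshold without FaDu HT + RT replicate 3. With the FaDu libraries numbered 1 left out together, an alternative chosen after seeing the data, HSPB9 passed with HT (1.23) and with HT + RT (1.05) relative to Control as well. In SAS it was 3.87 ± 0.71 with HT (SE, edgeR adjusted p = 0.00198) and 2.43 ± 0.42 between HT + RT and RT (SE, edgeR adjusted p = 0.00132), the former resting on 5 counts, all in a single Control library. With single libraries left out, the former ran from 3.28 to 7.74, and its size depends on the prior count where that library was the one removed.

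HSPB2, a muscle relative of CRYAB, had 0 to 6 counts per library. It had no count in FaDu Control, SAS Control or SAS RT. FaDu libraries held 2, 0 and 2 counts after RT, 2, 1 and 2 counts after HT, and 4, 6 and 2 counts after HT + RT. SAS libraries held 2, 4 and 3 counts after HT, and 0, 1 and 5 after HT + RT. HSPB2 counts were thus most often seen in heated libraries, with overlap between the heated and unheated libraries of each line. Over the group, with the same floor of 3 counts for the group at 0, the ratio to Control was 3.90 for FaDu HT + RT and 2.87 for SAS HT. The few counts of the other group (12 and 9 here) were taken as they were. For HSPB2 these ratios are therefore no strict lower bounds. The other ratios were lower, at 1.89 for FaDu HT and 1.97 for SAS HT + RT against Control, and 2.04 for SAS HT + RT against RT. Unheated FaDu RT, with 4 counts against 0 in Control, also had such a ratio, at 1.31. Without the count filter HSPB2 was altered in FaDu HT + RT against Control, a call resting on 12 counts against 0. CRYAB and HSPB2 share 626 exon bases on opposite strands. The libraries were directional, but whether reads were counted by strand is not given in the sources used here. Without strand, reads from the shared bases could not be told apart, and HSPB2 in particular is uncertain beside CRYAB, which had 51 to 371 counts in each heated library.

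HSPB11, the intraflagellar transport subunit IFT25, measured 61.65, 51.4 and 57.9 CPM in FaDu Control, 54.5, 55.6 and 55.8 CPM after RT, 66.6, 63.5 and 58.5 CPM after HT, and 59.5, 63.2 and 52.9 CPM after HT + RT. In SAS it measured 29.7, 37 and 31.65 CPM in Control, 32.2, 34.8 and 30.6 CPM after RT, 33.7, 36.0 and 36.5 CPM after HT, and 33.5, 34.8 and 31.0 CPM after HT + RT. Heated and unheated libraries overlapped in both lines, and every FaDu library was above every SAS library. The log2 fold change with HT was 0.16 ± 0.08 (SE, edgeR adjusted p = 0.211) in FaDu and 0.14 ± 0.10 (SE, edgeR adjusted p = 0.322) in SAS spheroids. Between HT + RT and RT it was 0.09 ± 0.08 and 0.07 ± 0.08.

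**Figure D2:**
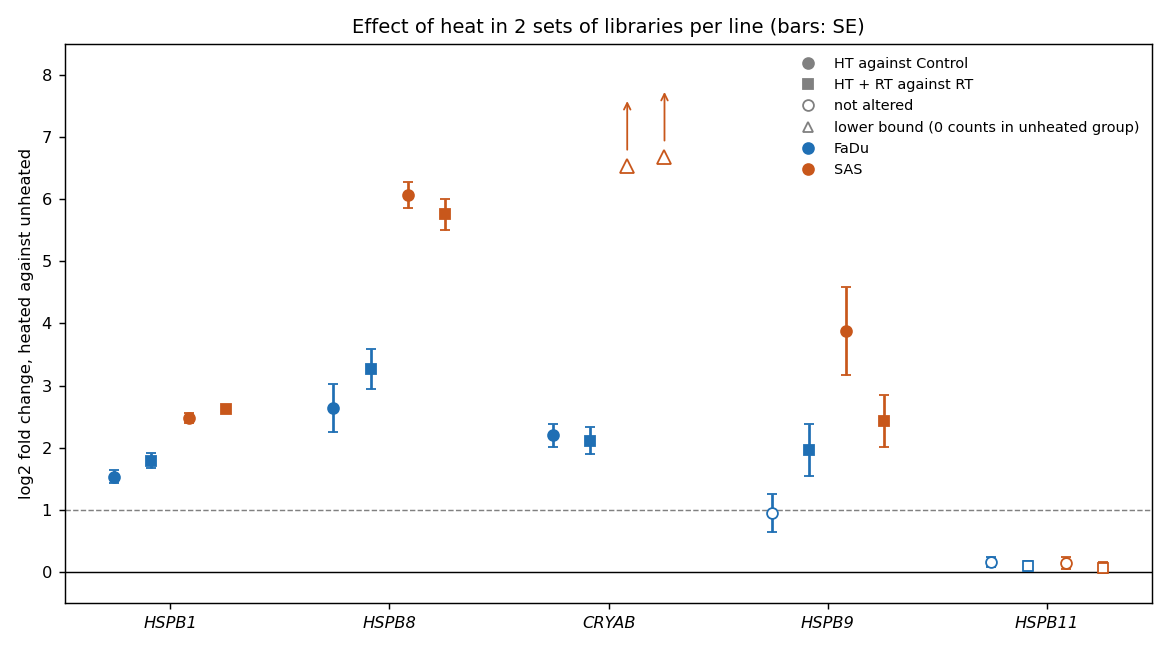
Log2 fold change of heated against unheated spheroids (vertical axis) for 5 genes, with FaDu in blue, SAS in orange, circles for HT against Control, squares for HT + RT against RT, and bars for the SE. Open symbols were not altered, and triangles with arrows are lower bounds for CRYAB in SAS, whose unheated libraries had 0 counts.

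Markers of other cell types were set beside the heat effect. Of the 4 fibroblast markers, COL1A1 moved with heat in SAS spheroids, with a log2 fold change of 4.18 (HT against Control, edgeR adjusted p = 6.35e-07) and 4.11 (HT + RT against RT, edgeR adjusted p = 1.3e-09). The fibroblast sum, most of it COL1A1, was 1.80, 1.31 and 2.30 CPM in SAS Control, 2.31, 1.73 and 2.11 CPM after RT, 31.0, 16.9 and 24.6 CPM after HT, and 24.8, 24.4 and 24.1 CPM after HT + RT. In FaDu it was 36.05, 42.9 and 47.6 CPM in Control, 34.2, 44.6 and 47.7 CPM after RT, 50.2, 48.3 and 64.0 CPM after HT, and 45.2, 57.0 and 65.8 CPM after HT + RT. The other defining fibroblast genes were near 0 in heated SAS libraries, where COL1A2 had a mean of at most 0.232 CPM, COL3A1 0.0188 CPM and PDGFRB 0.291 CPM. The muscle sum was 0.109, 0.0570 and 0.0589 CPM in SAS Control, 0, 0.157 and 0 CPM after RT, 0.732, 0.417 and 0.867 CPM after HT, and 0.1998, 0.257 and 0.518 CPM after HT + RT, and 0 of 4 muscle genes exceeded 1 CPM in any library. In FaDu the muscle sum was 0.0525, 0 and 0.336 CPM in Control, 0.205, 0.266 and 0.314 CPM after RT, 0.409, 0.523 and 0.739 CPM after HT, and 0.457, 0.375 and 1.11 CPM after HT + RT. The heated SAS libraries were above the unheated ones in both sums. In FaDu, the heated libraries were above the unheated ones in the muscle sum (from 0.375 CPM, against at most 0.336 CPM) and overlapped them in the fibroblast sum. ACTA1 was the most abundant muscle gene in most heated libraries. Whether these markers had a part in the heat effect on the 6 genes was not tested.

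Radiation alone altered 0 of the 6 genes in either line. In FaDu spheroids, edgeR tested 5 of the 6 and altered none, where 0.00643% of all 15552 genes were altered in either direction. HSPB9 alone had an unadjusted p under 0.05, with a log2 fold change of -1.21 ± 0.45 (SE, edgeR adjusted p = 0.901). Its 3 RT libraries were all below its 3 Control libraries. In SAS spheroids, edgeR tested only HSPB1 and HSPB11, and the share altered over 14680 genes was 0.0272%. HSPB1 was the 1 gene of the 6 with an unadjusted p under 0.05, at -0.16 ± 0.06 (SE, edgeR adjusted p = 0.705), and its 3 RT libraries were also all below its 3 Control libraries. DESeq2 altered 0 of the 6 genes in both lines as well. With the replicate number as a block, 28 of all genes in FaDu and 25 in SAS were altered, against 1 and 4 without it, and still 0 of the 6. The other FaDu values were -0.10 ± 0.12 for HSPB1, -0.46 ± 0.37 for HSPB8, -0.04 ± 0.07 for HSPB11 and 0.10 ± 0.24 for CRYAB (SE). An interval of 2 SE around the HSPB8 value ran from -1.21 to 0.285, so a fall of the size set as threshold was within it.

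Adding radiation to heat altered 0 of the 6 genes in edgeR. In FaDu spheroids, HT + RT against HT altered 0.0% of 16145 genes, with 361 genes below an unadjusted p of 0.05 and 2 altered by DESeq2. In SAS spheroids the share was likewise 0.0%, of 15341 genes, with 673 at an unadjusted p below 0.05 and 3 altered by DESeq2. With the replicate number as a block, 3 genes in FaDu and 7 in SAS were altered, none of them among the 6. None of the 6 genes had an unadjusted p under 0.05 or was altered in DESeq2 in either line. HSPB1 differed by 0.14 ± 0.10 in FaDu and by -0.01 ± 0.07 in SAS on the log2 scale (SE). HSPB8 differed by 0.16 ± 0.34 and 0.09 ± 0.13, and CRYAB by 0.01 ± 0.17 and 0.09 ± 0.24. For HSPB9 the differences were -0.20 ± 0.29 and -0.28 ± 0.33, and for HSPB11 -0.12 ± 0.09 and -0.08 ± 0.08. The values of each gene in HT and HT + RT overlapped in both lines.

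Without treatment the lines differed in 3 of the 6 genes, HSPB8, HSPB9 and CRYAB, all higher in FaDu, where 38.1% of the 15810 genes tested between the Controls were altered in either direction. These 3 entered the test through the FaDu libraries alone, so they had to differ to be tested. CRYAB was at least 38.9-fold higher in FaDu, with 138 counts over the 3 libraries against 0 in SAS (edgeR adjusted p = 8.59e-06). HSPB8 was higher by 4.57-fold, with an SE of 0.44 on the log2 scale ( edgeR adjusted p = 0.000972). HSPB9 was higher by 8.37-fold, a log2 fold change of 3.065 ± 0.75 (SE, edgeR adjusted p = 0.00325), again against 5 counts in SAS Control, and the log2 value ran from 2.47 to 7.03 with single libraries left out. HSPB11 was 0.83 ± 0.10 higher in FaDu (SE, edgeR adjusted p = 1.87e-05), below the fold change threshold. HSPB1 differed by -0.09 ± 0.09 (SE, edgeR adjusted p = 0.382), and its libraries overlapped.

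Whether the heat effect differed between the lines was tested by the interaction of line and heat, computed as the FaDu effect minus the SAS effect. With HT against Control, 2 of the 6 genes were altered, HSPB8 and CRYAB, and 2.74% of 17219 genes were altered in either direction. With HT + RT against RT, in libraries not used in the former test, the same 2 of 6 were altered, and 3.36% of 17376 genes. HSPB8 had an interaction of -3.405 ± 0.57 (SE, edgeR adjusted p = 0.00201) and -2.52 ± 0.52 (SE, edgeR adjusted p = 0.00748), so it rose more in SAS. For CRYAB the FaDu rise was 4.59-fold with HT, against the bound of at least 93.0-fold in SAS (interaction adjusted p = 0.000116 and 0.000693 in edgeR), and the size of the fitted term depends on the prior count. HSPB1 had an interaction of -0.92 ± 0.14 (SE, edgeR adjusted p = 0.00137) and -0.86 ± 0.14 (SE, edgeR adjusted p = 0.00131), under the fold change threshold. It reached -1.02 without FaDu Control replicate 1, -1.01 without FaDu HT replicate 3, -1.03 without SAS HT replicate 1, and -1.04 with the FaDu libraries numbered 1 left out together. HSPB9 had -2.90 ± 0.85 (SE, edgeR adjusted p = 0.0622) and -0.49 ± 0.63 (SE, edgeR adjusted p = 0.764). The former was altered without SAS Control replicate 2, the only SAS Control library with HSPB9 counts, but its fitted size (-6.84) then depends on the prior count. It was also altered by DESeq2 (-3.01), without a filter (-2.94) and with all groups in 1 fit (-2.94). HSPB11 had 0.05 ± 0.13 and 0.005 ± 0.11.

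Levels of different genes were compared in TPM, which scales for exon length as well as library size. The length was that of all annotated exons of a gene, not of the transcripts present, so ratios between genes are approximate. HSPB1 stood far above the other 5 genes, with a mean of 905 TPM in FaDu Control and 902 TPM in SAS Control, and with 2378.5 and 4566 TPM after HT. Among all genes ranked by mean TPM, HSPB1 moved from rank 122 in FaDu Control to 46 after HT and 41 after HT + RT, and from rank 138 in SAS Control to 22 and 24. The TPM sum of the 6 genes was 983 ± 115 in FaDu Control and 2481 ± 265 after HT, and 940.4 ± 35.7 in SAS Control and 4645 ± 485 after HT (SD, n = 3). HSPB1 made up 91.8% to 98.3% of that sum in every group. HSPB11 followed in unheated spheroids with 70.55 TPM in FaDu and 37.3 TPM in SAS Control. Heat brought HSPB8 in SAS to 33.0 TPM, 0.8845 times the level of HSPB11 there, from 0.0145 times in Control. HSPB8 and CRYAB were at nearly equal levels in FaDu Control (2.62 and 2.89 TPM), while in heated SAS spheroids HSPB8 was 5.59 times CRYAB after HT and 5.67 times after HT + RT.

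**Figure D3:**
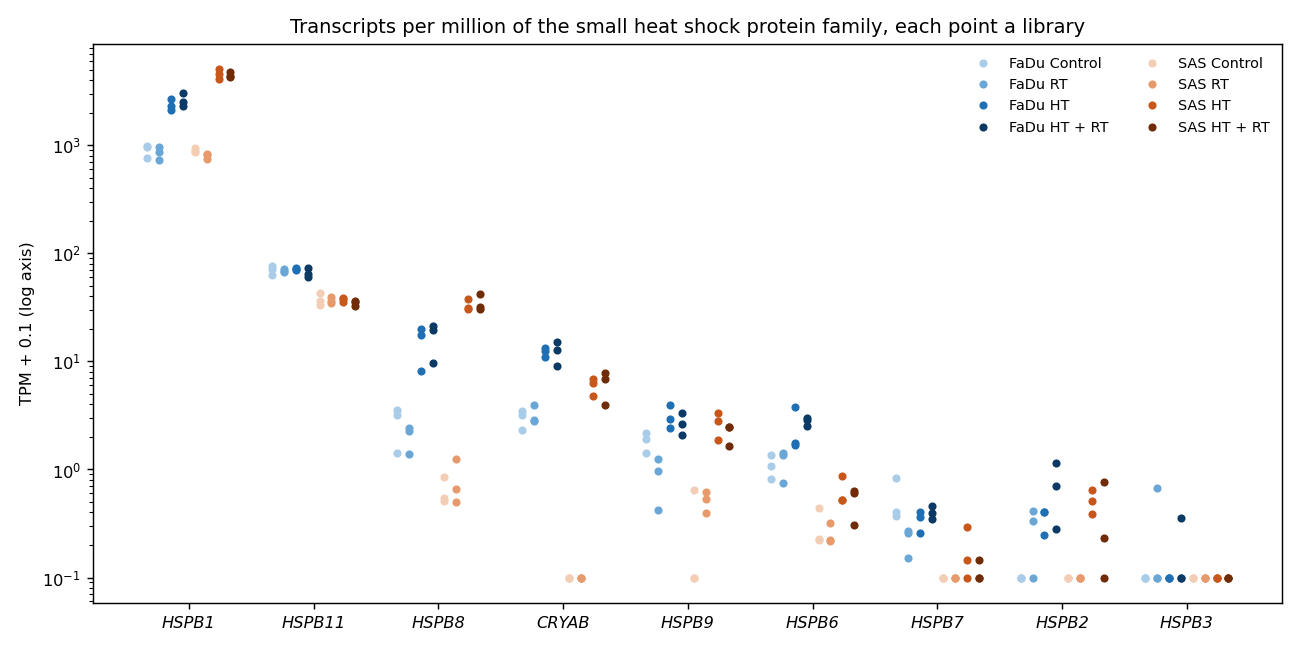
TPM plus 0.1 on a log axis for 9 family genes, each point a library, with 8 groups in shades of blue (FaDu) and orange (SAS) that darken with treatment. HSPB1 lies highest in every group, and CRYAB sits at the bottom of the axis in the unheated SAS groups, where it had 0 counts.

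The remaining genes of the family were HSPB3, HSPB6, HSPB7, ODF1 and CRYAA. HSPB6 (HSP20), another small heat shock protein of muscle, had 8, 6 and 13 counts in FaDu Control, 11, 5 and 14 counts after RT, 14, 14 and 31 counts after HT, and 24, 18 and 41 counts after HT + RT. In CPM, its heated FaDu libraries were all above its unheated ones. In the FaDu heat comparisons it passed the count filter mainly through the heated libraries, so those tests favoured a gene higher with heat. It was also tested between FaDu RT and Control, without a heated library, and was not altered there (log2 fold change 0.12). HSPB6 was altered upward in FaDu by HT + RT relative to Control (1.59 ± 0.31, SE, edgeR adjusted p = 0.00765) and relative to RT (1.46 ± 0.33, SE, edgeR adjusted p = 0.0161). The latter call was lost without FaDu RT replicate 2, FaDu RT replicate 3 or FaDu HT + RT replicate 3, each of which left 0 of the list altered. With HT it was 1.33 ± 0.44 (SE, edgeR adjusted p = 0.0688), and with the replicate number as a block HSPB6 passed there as well, as 1 of the 5 listed genes, and again with the FaDu libraries numbered 1 left out together. In SAS it had 1 to 7 counts per library and was not tested. HSPB7 had 1 to 14 counts in FaDu libraries and 0 to 4 in SAS libraries. HSPB3 had 3 counts and ODF1 1 count over all libraries, and CRYAA had none.

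The transcripts of the heat shock factors did not pass the thresholds with heat. Of HSF1, HSF2, HSF4, HSF5 and HSBP1, a binding protein that restrains HSF1, edgeR tested 4. It altered 0 of the 4 in each of the 6 comparisons of heated with unheated spheroids, as did DESeq2. Over all genes tested, 4.29% to 5.76% were altered upward there, so 0 of 4 is near that share. Between 1 and 4 of the heat shock factor genes had an unadjusted p under 0.05. HSF1, the factor that drives the heat shock response, had log2 fold changes of 0.16 in FaDu and 0.12 in SAS with HT. HSF2 had -0.36 and -0.33 with HT, and -0.33 and -0.42 between HT + RT and RT, in FaDu and SAS. HSBP1 had 0.36 in SAS with HT (edgeR adjusted p = 0.00241) and 0.43 between HT + RT and RT (edgeR adjusted p = 0.000171), below the fold change threshold. Between the Controls, HSF1 was lower in FaDu by a log2 fold change of -1.71 ± 0.07 (SE, edgeR adjusted p = 4.29e-09), as 1 of 4 tested, beside 38.1% of all genes altered there.

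The partners that refold or clear the clients of small heat shock proteins were listed as 16 genes. In FaDu spheroids, HT altered 8 of the 16 upward and 0 downward, beside 4.29% of all genes upward, with a median log2 fold change of 0.995 against 0.01 over all genes tested. HT + RT altered 8 upward relative to Control (median 1.17, 5.08% of all genes) and 9 relative to RT (median 1.35, 4.76% of all genes). With the FaDu libraries numbered 1 left out together, these counts were 8 with HT, 9 and 11. In SAS spheroids 15 of the 16 were tested and 10 were altered upward in each heat comparison, with medians of 2.186 (HT against Control), 2.575 (combined treatment against Control) and 2.57 (combined treatment against RT), against 0.00 over all genes, where 5.31%, 5.76% and 5.71% were altered upward. The largest rises in FaDu with HT were those of the inducible HSP70 genes HSPA1B (4.998) and HSPA1A (4.80), the HSP40 co-chaperone DNAJB1 (4.96) and HSPA1L (4.21). In SAS they were HSPA1B (4.68), HSPA1A (4.56), DNAJB4 (4.53) and DNAJB1 (4.23). HSPA1A and HSPA1B are nearly identical and HSPA1L is closely related, so reads can have been split among them. BAG3, the partner of HSPB8, rose by 1.57 ± 0.21 in FaDu and by 2.99 ± 0.08 in SAS with HT (SE, edgeR adjusted p = 0.00154 and 2.62e-10). DNAJA1 rose by 1.15 in FaDu and by 1.87 in SAS. The constitutive HSPA8 had 0.84 in both lines with HT, under the threshold, and BAG1, STUB1 and SQSTM1 had values from -0.02 to 0.12.

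The interaction of line and HT altered 5 of the 16 partners (2.74% of all genes) and that of line with HT + RT against RT 3 (3.36% of all genes), all with the higher value in SAS. HSPA4L, an HSP110 type exchange factor, had -1.70 ± 0.31 and -1.82 ± 0.25 (SE, edgeR adjusted p = 0.00382 and 0.000354). DNAJB4 had -1.47 ± 0.26 and -1.57 ± 0.25. BAG3 and HSPH1 had -1.39 ± 0.24 and -1.25 ± 0.25 with HT, and HSPA4 had -1.21 ± 0.09 and -1.17 ± 0.07 in the 2 tests, where it rose in SAS (1.15 and 1.135) and was not altered in FaDu (-0.09 and -0.01). Over all 16 the medians were -0.09 and -0.06, against 0.03 and -0.02 over all genes tested. Between the Controls, 2 of the 16 were higher in FaDu (SYNPO2 3.18, DNAJB4 1.39) and 3 lower, among them BAG1 (-1.34) and HSPH1 (-1.20), beside 38.1% of all genes altered there in either direction. SYNPO2, with 13 counts over SAS Control against 141 over FaDu Control, was tested through the FaDu libraries alone.

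The kinases that act on HSPB1 through p38, with the phosphatase DUSP1 that switches p38 off, were listed as 11 genes. Each heat comparison altered 1 of the 11 in FaDu and 1 of the 10 tested in SAS, where 4.29% to 5.76% of all genes were altered upward. The gene was DUSP1 each time, and it rose in every heat comparison. It measured 11.9, 11.9 and 15.1 CPM in FaDu Control, 96.35, 25.0 and 31.55 CPM after RT, 304, 348 and 369 CPM after HT, and 379, 424 and 456 CPM after HT + RT. In SAS it measured 68.8, 84.7 and 78.5 CPM in Control, 71.5, 67.5 and 60.0 CPM after RT, 243.5, 298 and 254 CPM after HT, and 260.1, 269 and 254 CPM after HT + RT. Heated and unheated libraries were apart in both lines, and FaDu RT replicate 1 lay well above the other FaDu RT libraries. DUSP1 had a log2 fold change of 4.735 ± 0.13 in FaDu and 1.81 ± 0.09 in SAS with HT (SE, edgeR adjusted p = 1.02e-07 and 6.63e-08). Its interaction with HT was 2.95 ± 0.16 (SE, edgeR adjusted p = 1.16e-07), larger in FaDu, opposite in direction to that of HSPB8. With HT + RT against RT it was 1.02 ± 0.46 (SE, edgeR adjusted p = 0.239) and not altered, but 1.91 ± 0.14 and altered without FaDu RT replicate 1 (SE, edgeR adjusted p = 4.32e-07), a refit chosen after seeing the data. DUSP1 was also altered there, at 1.92, with the FaDu libraries numbered 1 left out together. With FaDu RT against Control it had 1.97 ± 0.46 (SE, edgeR adjusted p = 0.389), and 1 of the 11 genes passed with the replicate number as a block, against 0 without it (1 at an unadjusted p under 0.05, 0 in DESeq2). Without FaDu RT replicate 1 it was DUSP1 that passed there, at 1.13 ± 0.13 (SE, edgeR adjusted p = 0.0125), and it passed at 1.07 with the FaDu libraries numbered 1 left out together. The median over the listed genes tested with HT was 0.04 in FaDu and 0.01 in SAS. Between the Controls, 2 of the 11 were higher in FaDu, PRKD1 and MAP2K6 (3.02), beside 38.1% of all genes altered there in either direction. There were 4 lower in FaDu, among them DUSP1 (-2.54 ± 0.11, SE) and MAPK11 (-1.32). PRKD1 had 531 counts over FaDu Control and 0 over SAS Control, so it was tested through the FaDu libraries alone.

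The partners of HSPB11 in intraflagellar transport complex B were listed as 16 genes, and heat altered 0 of the 16 in edgeR in each of the 6 heat comparisons, where 4.29% to 5.76% of all genes were altered upward. Between 3 and 6 of them had an unadjusted p under 0.05, and DESeq2 altered 0. Without SAS RT replicate 1, or without SAS HT + RT replicate 1, 1 of the 16 passed between SAS HT + RT and RT. Their medians ran from -0.05 to 0.09. Between the Controls, 3 of the 16 were altered upward in FaDu and 0 downward. This was no larger a share than over all genes, where 3356 of 15810 tested were altered upward. The 3 were IFT46 (1.79 ± 0.13), CLUAP1 (1.585 ± 0.13) and IFT27 (1.19 ± 0.15, SE). The median of the list was 0.29 against 0.03 over all genes. Of the 13 not altered, some had lower means in FaDu than in SAS Control, such as IFT88 (8.51 and 17.3 CPM) and IFT57 (36.0 and 68.85 CPM). IFT27 is the direct binding partner of HSPB11 in the complex, and HSPB11 itself was 0.83 higher in FaDu.

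The genes next to the 6 were examined for like changes. SRRM3, 15256 bases before HSPB1 on the same strand, was altered upward in 3 of 4 heat comparisons that share no library, with log2 fold changes of 0.99 and 1.58 in FaDu and 1.47 and 1.25 in SAS (HT against Control, then HT + RT against RT). YWHAG, on the other side of HSPB1, was not altered, with 0.09, 0.17, 0.73 and 0.70 in the same order. The processed pseudogene AC084880.1, which lies inside HSPB8 on the same strand without sharing an exon base, was altered in all 4 (2.62, 2.215, 1.88 and 2.01). Its reads cannot be told apart here from unspliced HSPB8 RNA. KAT2A lies 73 bases from HSPB9 on the other strand and was not altered (-0.03, 0.19, 0.505 and 0.57). LRRC42, 148 bases from HSPB11, and DIXDC1, 3422 bases from CRYAB, were not altered either. Of the HSPB1 pseudogenes, HSPB1P1 had 0 to 17 counts per library, with 9 over SAS Control and 36 over SAS HT, against 21196 and 121349 for HSPB1, and HSPB1P2 had 0 to 6.

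Likeness of pattern was described by Pearson's r over the 8 group means of log2 CPM, searched among 12294 genes with enough counts. All points share the same libraries, so r is a description without a test. The genes most like HSPB1 were HSP90AB1, a cytosolic HSP90 (r = 0.9955), AC073957.3 (0.995) and EIF1AD (0.992), with the ubiquitin gene UBB among the 5 closest (0.990). Those most like HSPB8 were AHSA2P (0.997), RGS2 (0.996) and DEDD2 (0.995). CRYAB was closest to ZNF10 (0.993), NKIRAS2 (0.9905) and YIPF1 (0.989), and HSPB9 to ZNF483 (0.969). HSPB11 was closest to GTF2F1, CCDC34 and PPIP5K1 (each 0.999), genes that, like it, mainly differed between the lines. Among the 6 genes themselves, r was 0.954 between HSPB1 and HSPB8, 0.926 between CRYAB and HSPB9, 0.854 between HSPB8 and CRYAB, and -0.14 between HSPB1 and HSPB11. When r was computed over the 24 libraries, 2 of the 5 closest genes were shared for HSPB1, 3 for HSPB8, 2 for CRYAB, 2 for HSPB9 and 0 for HSPB11.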

How the data were processed

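Total RNA came from 3 independent experiments, directional libraries (NEBNext Ultra II Directional) were prepared and sequenced by a service provider, and the authors deposited raw read counts per Ensembl gene in 7 tables. The 18 columns that recur between tables were identical. Submitters' processing notes name bcl2fastq, DESeq2 and the mouse build mm9, although the identifiers are human; aligner, annotation and strand setting are not given in the sources used here. Symbols, positions and exon lengths came from GENCODE v29, which lacked 602 of the identifiers (0.0217% of counts).

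Testing used edgeR 4.0.16 under R 4.3.3 (TMM, filterByExpr with a minimum count of 10, quasi-likelihood test, Benjamini-Hochberg adjustment) in 13 comparisons, each on its own groups. Each SE was derived from the fold change and its F statistic, as absolute log2 value over root F. On simulated counts with 200 changed genes, the procedure recovered 200 with 3 false calls for FaDu HT against Control, and 191 with 6 false calls for the interaction with HT. The changed genes were drawn from well-counted genes and moved by more than the threshold. Spread was fixed, and no simulated replicate lay apart. These rates therefore do not apply to genes with few counts, such as HSPB2 and HSPB9, or to FaDu replicate 1. CPM used TMM over all libraries, and TPM used summed exon length. All 6 genes were named throughout. From each related list, up to 4 altered genes with the largest change were named for HT against Control, between the Controls and for the interactions. Other genes named from the lists, COL1A1 and HSBP1 among them, were picked with their values in view. The 6 genes, the lists and the comparisons were chosen with earlier results of these data known. Alternatives were DESeq2 1.42.0, RLE size factors, no filter, a filter of 10 counts or more in each library, a joint fit of all groups, a block for replicate number, no fold change threshold, other scalings of CPM, and each library left out in turn; leaving out the FaDu libraries numbered 1 together, and DUSP1 without FaDu RT replicate 1, were added after seeing the data.

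Same-numbered libraries were checked for pairing by correlating their deviations from the group means. No source states that equal numbers mark the same day. In FaDu, the unlike-numbered pairs of replicates 2 and 3 also exceeded 0.1 in every comparison (0.101 to 0.31). For replicates 2 and 3, the FaDu correlations alone therefore do not show that equal numbers pair the libraries. Between FaDu groups, replicate 1 had 0.413 to 0.571 with replicate 1, and -0.461 to -0.185 with replicates 2 and 3. All same-numbered pairs exceeded 0.1 in every FaDu comparison (0.157 to 0.571) and in SAS in RT against Control and in HT + RT against Control, RT or HT (0.148 to 0.297), but not in SAS HT against Control, between the Controls or in the interactions.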

Additional observations from a re-analysis of the deposited data

Results flagged for a closer look

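The effect of heat differed between FaDu and SAS spheroids for several genes, by a test of the difference itself (edgeR's interaction of line and heat, FaDu effect minus SAS effect). With HT against Control, HSPB1 differed by -0.92, HSPB8 by -3.41 and CRYAB by -7.43, and with HT + RT against RT by -0.86, -2.52 and -7.70. The CRYAB sizes rest on SAS groups without a count and depend on the prior count, so they are no measure of how large the difference was. Among the chaperone partners, HSPA4L differed by -1.70, DNAJB4 by -1.47, BAG3 by -1.39, HSPH1 by -1.25 and HSPA4 by -1.21 with HT against Control. With HT + RT against RT, HSPA4L differed by -1.82, DNAJB4 by -1.57 and HSPA4 by -1.17, while BAG3 (-0.78) and HSPH1 (-0.96) were not altered. All of these had the higher value in SAS spheroids; HSPA4 rose in SAS and was not altered in FaDu. DUSP1 differed the other way with HT against Control, by 2.95, and was not altered with HT + RT against RT (1.02), but was (1.91) without FaDu RT replicate 1, where DUSP1 lay apart, a refit chosen after seeing the data. HSPB1 passed the adjusted p and not the fold change threshold in both tests. SAS spheroids received no radiation in the former test and 10 Gy in the latter, against 7 Gy in FaDu.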

How the results depend on the processing

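RLE size factors changed no call on the 6 genes in any comparison, and DESeq2 changed 1, HSPB9 in the interaction of line and HT, from not altered to altered (-3.01). Requiring at least 10 counts in every library removed low genes from the test and left 3 of the 6 altered in FaDu HT + RT against RT, where HSPB9 was removed, 1 in SAS HT against Control, 1 in SAS HT + RT against Control, 1 in SAS HT + RT against RT, and 0 between the Controls and in both interactions (0 in each). Without a filter 4 of the 6 were altered in FaDu HT + RT against Control, where HSPB2, not tested with the filter, was added. HSPB9 in the interaction with HT was also altered without a filter (-2.94), with all groups in 1 fit (-2.94) and with the replicate block (-2.89), where the numbers did not pair the SAS libraries; the block changed no other call on the 6 genes. Leaving libraries out singly, the number altered ranged from 3 to 4 in FaDu HT + RT against RT and from 2 to 3 in the interaction with HT, and was the same as with all libraries elsewhere. Values near 0 that were never altered changed sign: CRYAB in FaDu HT + RT against HT (-0.001 with the replicate block), HSPB11 in the interaction with HT + RT against RT (-0.006 with all groups in 1 fit, -0.001 with the block, -0.027 without the FaDu libraries numbered 1) and, without those libraries, HSPB11 in FaDu RT against Control (0.028) and HSPB1 between the Controls (0.019). Leaving out 1 library gave ranges across 0 for HSPB11 (-0.103 to 0.020) and CRYAB (-0.096 to 0.217) in FaDu RT against Control, HSPB11 in FaDu HT + RT against Control (-0.012 to 0.133), HSPB8 (-0.124 to 0.401), HSPB9 (-0.396 to 0.004) and CRYAB (-0.157 to 0.157) in FaDu HT + RT against HT, HSPB11 in SAS RT against Control (-0.088 to 0.090) and HT + RT against Control (-0.014 to 0.162), HSPB1 (-0.079 to 0.075), HSPB8 (-0.063 to 0.202) and CRYAB (-0.110 to 0.313) in SAS HT + RT against HT, HSPB1 between the Controls (-0.133 to 0.019), and HSPB11 in the interactions (-0.048 to 0.111 and -0.058 to 0.079). The cause was not tested. Scaling CPM by raw totals moved 5 of 48 group means of the 6 genes by more than 1 SD, and RLE 0. Counts were few for HSPB2 and HSPB9, and for HSPB8 and CRYAB in unheated SAS spheroids; depth was not varied.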
